A study of Mus musculus with 15 samples.

Results

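The 10 genes described here encode proteins of the Z-disc and thin filament of heart muscle: Actn2, Tcap, Ldb3, Myoz2, Nebl, Nexn, Des, Ttn, Actc1 and Tpm1. They were chosen by symbol, and all 10 were found among the 39331 genes of the count table and passed the filter on low counts. Polyadenylated RNA of the left ventricle was sequenced in C57BL/6 mice, and experimental myocardial infarction was done in every group, controls included. Adult hearts given adult T cells gave 4 libraries (adult recipients 1, 2, 3 and 4), and adult control hearts gave 3 (adult controls 5, 6 and 7). Neonatal hearts given adult T cells gave 4 libraries (neonatal recipients 1, 2, 4 and 5), and neonatal control hearts, left untreated, gave 4 (neonatal controls 6, 7, 8 and 9). The protocol gives 36 h, speaks of neonatal hearts only, and does not make clear whether that is the time of transfer or of collection. No age in days, T cell dose or infarct size is given, and nothing says that the libraries of a group came from separate animals, so p-values measure the spread between these libraries. The series' title places the question in the effect of adult T cells on regeneration of the neonatal heart.

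The Z-disc is the border between neighbouring sarcomeres, where actin thin filaments of opposite polarity are anchored and cross-linked by sarcomeric alpha-actinin. Titin, a giant elastic protein, runs from the Z-disc towards the middle of the sarcomere, and its end in the Z-disc is capped by telethonin. Thin filaments are built from cardiac actin, with tropomyosin along them to control access of myosin, and desmin filaments tie neighbouring Z-discs to each other and to the cell membrane.

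Total counts ran from 21871617 to 34302786 per library, so 3 counts equalled 0.0875 to 0.137 CPM (counts scaled to a common library size), far under every value of the 10 genes. Together the genes took 2.73 to 2.83% of all counts in adult recipients and 2.27 to 2.45% in adult controls, and 2.43 to 2.83% in neonatal recipients and 2.37 to 2.74% in neonatal controls. Adult recipients lay above all adult controls on this measure, and the neonatal groups overlapped. Ventricular cardiomyocyte markers were present in every library. Per kilobase of the longest annotated transcript, the adult recipient mean was highest for Actc1 at 9965 CPM per kb and next for Tpm1 at 2821. It was 722 for Actn2, 464 for Des, 349 for Tcap, 305 for Myoz2, 168 for Ldb3, 118 for Nexn, 25.0 for Nebl and 10.4 for Ttn. In adult controls the order was the same, with Tcap the fifth gene at 272 CPM per kb. In neonatal hearts the first 4 genes and the last 2 were in the same places, and Tcap stood lower, at 126 CPM per kb in neonatal recipients, the eighth, and at 137 in neonatal controls, the seventh. A per-kilobase level rests on transcript models and carries no spread here.

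Promoter windows from RefSeq (GRCm38.p6, 250 bases before to 50 after an annotated start) were present for 8 of the 10 genes. They were searched on both strands for the CArG box, bound by serum response factor, the MEF2 site, TATAAA and CACGTG. The CArG box was found in 3 of these genes (Actc1, Ldb3 and Nebl), against 1.81% of 27025 genes with a window, and the MEF2 site in 2 (Myoz2 and Ttn), against 3.7%. CACGTG was found in 2 (Actn2 and Nebl), against 8.09%, and TATAAA in 1 (Actc1, after the start), against 15.7%. No matches of different motifs overlapped in these windows. The 200 bases before the start are shown for Actc1 and Ldb3, whose CArG boxes in capitals lie 47 to 38 and 35 to 26 bases before the start, and for Myoz2 and Ttn, whose MEF2 sites in capitals lie 33 to 24 and 166 to 157 bases before it. They are shown because Actc1 and Ttn passed the test in opposite directions in adult recipients, and Myoz2 and Ldb3 passed it in both comparisons of age. Nebl, which also holds a CArG box, was called lower in adult recipients and is not shown. Ldb3 has another annotated start, and the same box lies 109 to 100 bases before that one. All 4 are on the minus strand, at chr2:114052876-114053075 (Actc1), chr14:34588682-34588881 (Ldb3), chr3:123034988-123035187 (Myoz2) and chr2:76982548-76982747 (Ttn). A match describes these letters and is not a measured binding site.
Actc1: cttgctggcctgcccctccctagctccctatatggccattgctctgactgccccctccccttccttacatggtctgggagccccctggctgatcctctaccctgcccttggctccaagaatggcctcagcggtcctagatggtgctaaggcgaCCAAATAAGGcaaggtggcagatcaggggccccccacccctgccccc
Ldb3: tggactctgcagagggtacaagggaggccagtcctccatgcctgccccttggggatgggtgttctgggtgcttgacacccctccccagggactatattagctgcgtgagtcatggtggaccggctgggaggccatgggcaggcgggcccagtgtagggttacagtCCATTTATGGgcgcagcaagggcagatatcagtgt
Myoz2: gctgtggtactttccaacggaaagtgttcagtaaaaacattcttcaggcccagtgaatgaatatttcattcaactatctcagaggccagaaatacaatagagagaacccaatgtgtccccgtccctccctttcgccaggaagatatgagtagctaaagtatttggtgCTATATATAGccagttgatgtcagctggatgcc
Ttn: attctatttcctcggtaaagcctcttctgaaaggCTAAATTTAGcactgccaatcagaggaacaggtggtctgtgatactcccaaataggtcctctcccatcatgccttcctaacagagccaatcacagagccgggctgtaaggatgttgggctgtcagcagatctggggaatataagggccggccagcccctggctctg

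Adult recipients were compared with adult controls to ask how the genes stood in infarcted adult ventricles with and without transferred T cells. In adult recipients Tcap, Actn2 and Actc1 rose, to 1.28, 1.29 and 1.26 times the adult control level, and Ttn and Nebl fell, to 0.679 and 0.78 times that level. The other 5 genes did not pass. The test was edgeR's quasi-likelihood test over 16437 genes, with a threshold of 0.05 on the Benjamini-Hochberg adjusted p. Over all genes tested, 3.53% were called higher and 5.03% lower, against 3 and 2 of these 10. These were 580 and 826 genes, and with unscaled library totals 458 and 1034. The median log2 fold change of the 10 was 0.26, against -0.0021 over all genes. Of the 10 values 6 were positive, against 49.7% over all genes. In whole ventricle RNA, fewer cells of a type and less RNA per cell cannot be told apart.

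Tcap encodes telethonin, the titin cap (gene ID 21393, chromosome 11, 98383811 to 98384953 on GRCm38.p6). It measured 324, 344, 347 and 309 CPM in adult recipients 1 to 4, and 257, 261 and 255 CPM in adult controls 5 to 7. Every adult recipient lay above every adult control, and the controls lay close together. The fitted log2 change was 0.36 ± 0.08 (SE, 95% interval 0.18 to 0.54, adjusted p = 0.0214).

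Actn2, the sarcomeric alpha-actinin that cross-links thin filaments (gene ID 11472, chromosome 13, 12269426 to 12340732), measured 1969, 2018, 2401 and 2308 CPM in adult recipients. In adult controls it measured 1648, 1548 and 1857 CPM. All recipients were above all controls, with recipients 3 and 4 the highest. edgeR gave a log2 fold change of 0.37 ± 0.10 (0.15 to 0.59, adjusted p = 0.0384). Actc1, the cardiac actin of the thin filament (gene ID 11464, chromosome 2, 114047282 to 114052875), measured 14134, 15906, 14426 and 14245 CPM in adult recipients and 12248, 11203 and 11537 CPM in adult controls. The groups did not overlap, and recipient 2 stood above the other recipients, which lay close together. The log2 fold change was 0.33 ± 0.09 (0.13 to 0.53, adjusted p = 0.039). Part of the reads of Actc1 may be shared with the near-identical skeletal actin gene Acta1, since the deposited counts hold fractions and the rule behind them is not given in the sources used here.

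Ttn, which encodes titin (gene ID 22138, chromosome 2, 76703980 to 76982557), measured 1140, 1128, 1148 and 1044 CPM in adult recipients and 1555, 1602 and 1770 CPM in adult controls. All 4 recipients were below all 3 controls, and the recipients differed little among themselves. The fitted log2 change was -0.56 ± 0.16 (-0.90 to -0.22, adjusted p = 0.0422). Nebl, which encodes nebulette, a small relative of nebulin that binds actin at the Z-disc (gene ID 74103, chromosome 2, 17342673 to 17734949), measured 215, 213, 201 and 180.0 CPM in adult recipients. In adult controls it measured 251, 291 and 236 CPM. The groups did not overlap, with recipient 4 the lowest and control 6 the highest. edgeR gave a log2 fold change of -0.36 ± 0.11 (-0.58 to -0.14, adjusted p = 0.0441).

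**Figure D1:**
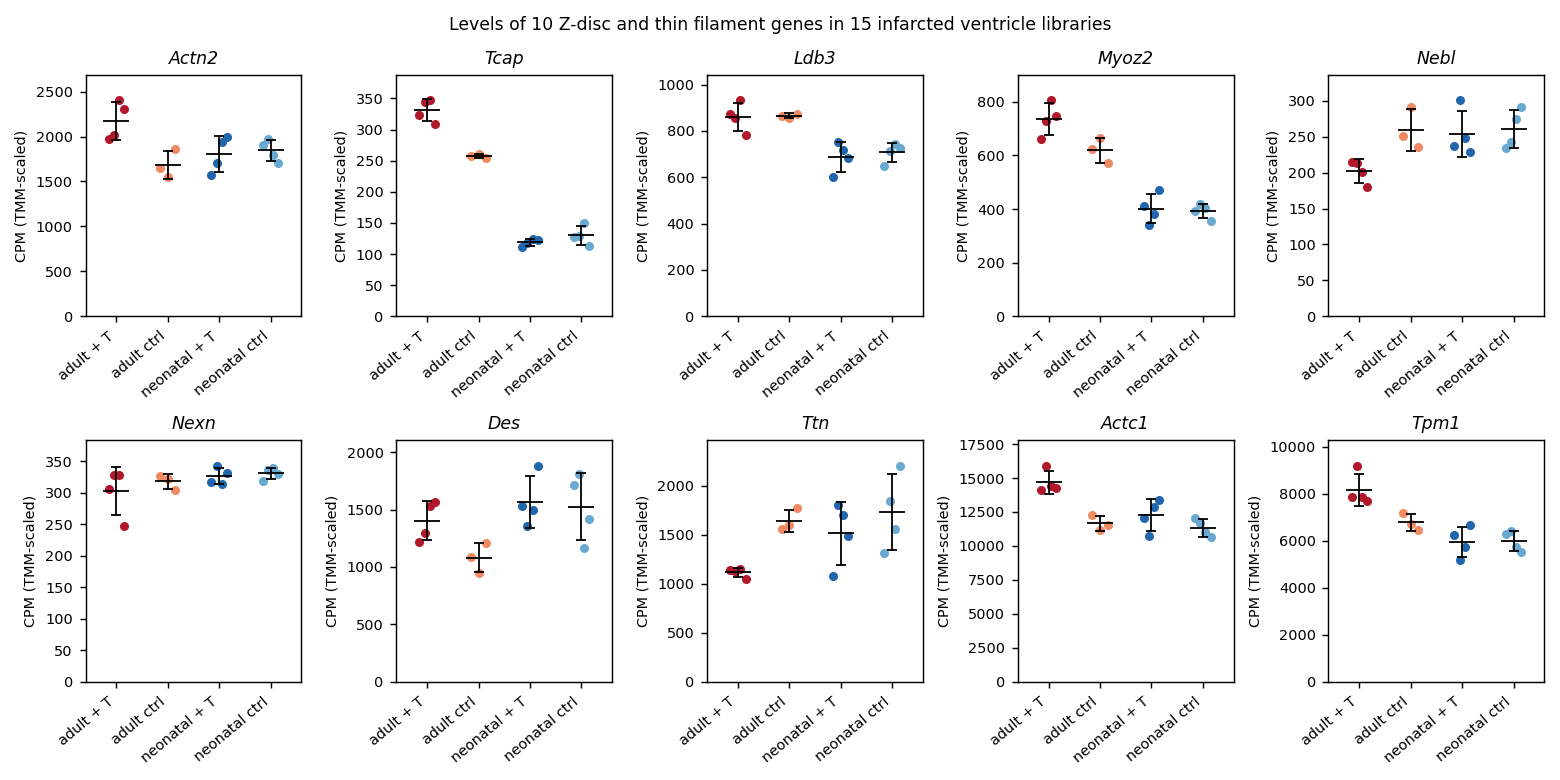
TMM-scaled CPM (vertical axes, from 0) of each of the 10 genes in the 15 libraries, with points for libraries and bars for mean ± SD of adult recipients (adult + T, n = 4), adult controls (n = 3), neonatal recipients (n = 4) and neonatal controls (n = 4). Tcap separates adult recipients, adult controls and both neonatal groups, while Nexn lies near the same level in all 4 groups.

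Tpm1 and Des did not pass, though their adult groups were apart. Tpm1, which encodes the main tropomyosin of heart muscle (gene ID 22003, chromosome 9, 67022590 to 67049672), measured 7861, 9189, 7865 and 7696 CPM in adult recipients and 7167, 6727 and 6443 CPM in adult controls. Its log2 fold change was 0.27 ± 0.10 (0.06 to 0.48, adjusted p = 0.098). Recipient 2 stood well above the other recipients. Des, which encodes desmin (gene ID 13346, chromosome 1, 75360292 to 75368579), measured 1218, 1298, 1536 and 1564 CPM in adult recipients and 1085, 951 and 1206 CPM in adult controls. The lowest recipient was just above the highest control, and the log2 fold change was 0.38 ± 0.14 (0.07 to 0.68, adjusted p = 0.103).

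Myoz2, which encodes calsarcin, a Z-disc protein that binds calcineurin and alpha-actinin (gene ID 59006, chromosome 3, 123006206 to 123035003), measured 662, 728, 805 and 746 CPM in adult recipients and 623, 663 and 571 CPM in adult controls. The lowest recipient and the highest control nearly coincided, and the log2 fold change was 0.25 ± 0.10 (0.04 to 0.46, adjusted p = 0.121). Ldb3, which encodes the PDZ-LIM protein ZASP or cypher (gene ID 24131, chromosome 14, 34526699 to 34590314), measured 873, 854, 932 and 784 CPM in adult recipients and 866, 856 and 875 CPM in adult controls. The recipients spread to both sides of the controls, with an interval of the log2 fold change of -0.19 to 0.17 (adjusted p = 0.961). Nexn, which encodes nexilin, an actin-binding Z-disc protein (gene ID 68810, chromosome 3, 152236982 to 152266350), ranged over 247 to 329 CPM in adult recipients and 304 to 327 CPM in adult controls. Only recipient 4 was below the controls, and the interval was -0.25 to 0.11 (adjusted p = 0.642).

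The calls in adult hearts depended on single libraries. When each of the 7 adult libraries was left out in turn, the 5 genes kept their direction, but 0 of the 10 were called without adult recipient 2, without adult recipient 4, without adult control 5 or without adult control 6. In each of these 4 fits by edgeR, 7 of the 10 had an unadjusted p under 0.05. With all libraries it was 8 of the 10, and 4491 of all 16437 genes. Over all genes, 0 were called without adult recipient 4, adult control 5 or adult control 6. Without adult recipient 2, 130 of all genes were called higher and 334 lower. Of the 10, 1 was called without recipient 3, 2 without recipient 1 and 3 without control 7. In the same order, 438, 401 and 371 of all genes were called higher and 647, 565 and 859 lower. The log2 fold change of Tcap stayed between 0.34 and 0.39 (adjusted p 0.035 to 0.0867, called in 3 of 7 fits), that of Ttn between -0.60 and -0.50 (0.0633 to 0.123, called in 0 of 7). DESeq2 called 7 of the 10: the same 5, plus Tpm1 (adjusted p = 0.0215) and Des (adjusted p = 0.0404). It called more of all genes too, 1239 higher and 1081 lower of 12572 with an adjusted p.

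Transcript length moved with the same contrast. Over 15333 genes with an annotated transcript, the Spearman correlation between length and log2 fold change was -0.45, described here across genes, which are not independent replicates. Ttn, with 106.824 kb, has the second longest transcript among the genes tested, and Nebl, with 8.079 kb, is the next longest of the 10. Tcap at 0.948 kb and Actc1 at 1.473 kb are the shortest. With a smooth length trend removed from each library, edgeR called 0 of all 15333 genes, and so 0 of the 10. Of the 10, 6 had an unadjusted p under 0.05. The log2 fold changes were then 0.20 for Tcap, 0.20 for Actc1, -0.31 for Ttn and -0.13 for Nebl, and 0.36 for Actn2, whose transcript of 3.013 kb is of middle length. Its adjusted p was 0.0698. Within libraries, the correlation of length with the deviation from the gene's mean level was -0.34 to -0.21 in adult recipients and 0.03 to 0.13 in adult controls.

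**Figure D2:**
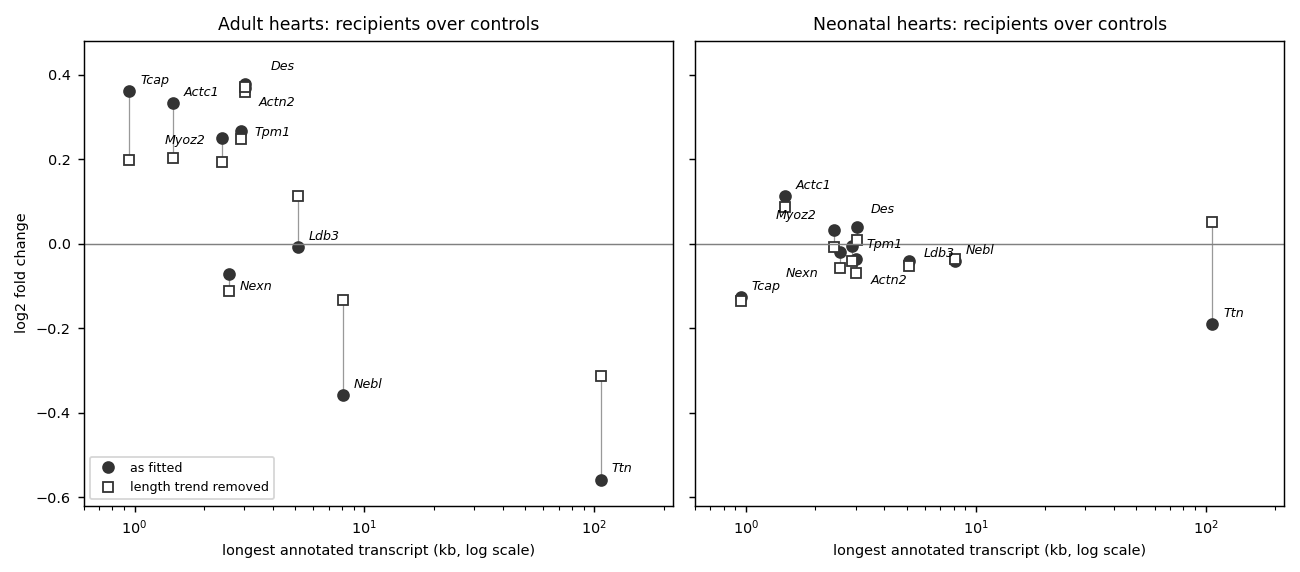
Log2 fold change of recipients over controls (vertical axis) against the longest annotated transcript in kb (log axis) for the 10 genes, in adult hearts on the left and neonatal hearts on the right. Filled circles are the fitted values and open squares the values with the length trend removed. With the trend removed, Ttn in adult hearts lies at -0.31 in place of -0.56 and Nebl at -0.13 in place of -0.36, while Actn2 and Des barely move.

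Other measures also differed between the adult groups. Mitochondrially encoded genes took 12.9 to 18.0% of counts in adult recipients and 18.3 to 21.8% in adult controls. The summed level of 8 ventricular cardiomyocyte markers was 57887 to 65177 CPM in adult recipients and 49131 to 50542 CPM in adult controls. Of the 8, 6 had a positive log2 fold change, and 2, Myl2 and Myl3, were called higher. Ryr2 and Pln went the other way by edgeR, at -0.31 ± 0.14 (adjusted p = 0.147) and -0.11 ± 0.15 (adjusted p = 0.69). For Ryr2 all adult recipients lay below all adult controls. The 5 T cell markers summed to 2.26 to 4.19 CPM in adult recipients and 1.42 to 2.11 CPM in adult controls. In each of these 3 measures the groups did not overlap, and their part in the differences of the 10 genes was not tested. The 4 atrial markers summed to 3424 CPM in adult recipient 4, and to 253 to 839 CPM in the other adult recipients. In adult controls they summed to 192 to 1052 CPM. Of the 3424 CPM, 3414 were Nppa, which measured 215 CPM in adult recipient 2. Myl7 and Sln were instead highest in adult recipient 2, at 35.5 and 2.21 CPM, against 9.28 and 0.677 CPM in adult recipient 4. The sums of 9 skeletal muscle markers were 5.04 to 6.97 CPM in adult recipients and 4.30 to 6.32 CPM in adult controls. Fibroblast and endothelial marker sums overlapped between the adult groups, at 2162 to 3224 and 1023 to 1187 CPM in adult recipients and 1836 to 2980 and 1044 to 1051 CPM in adult controls. Macrophage marker sums were 69.8 to 96.8 CPM in adult recipients and 74.5 to 94.96 CPM in adult controls, and smooth muscle and pericyte sums 1092 to 1210 CPM in adult recipients and 1206 to 1231 CPM in adult controls. No marker of any of these lists was at 0 in all libraries.

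Other genes of the sarcomere were set against the shares called over all genes in adult recipients, 3.53% higher and 5.03% lower. Among 27 other tested Z-disc genes 2 were called higher and 0 lower, and the median log2 fold change was 0.10. They were Cryab, which encodes the chaperone alpha-B-crystallin, at 747 to 805 CPM in adult recipients and 592 to 627 CPM in adult controls (log2 fold change 0.36 ± 0.10, adjusted p = 0.039), and Pdlim1, a PDZ-LIM protein, at 97.1 to 114 CPM in adult recipients and 85.2 to 90.8 CPM in adult controls (0.28 ± 0.08, adjusted p = 0.0412). Among 12 other thin filament genes 1 was called higher and 0 lower, with a median of 0.26. It was Tnnc1, cardiac troponin C, at 2554 to 2999 CPM in adult recipients and 2066 to 2223 CPM in adult controls (0.39 ± 0.10, adjusted p = 0.0271).

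Against the same shares over all genes, 2 of 11 genes of the M-band and thick filament were called higher and 0 lower, with a median of 0.18. They were the ventricular myosin light chains Myl2 (0.35 ± 0.10, adjusted p = 0.0438) and Myl3 (0.32 ± 0.10, adjusted p = 0.0489). Among 14 genes of intermediate filaments and costameres, the sites that join Z-discs to the membrane, 1 was called higher and 2 lower, with a median of 0.04. Vim, the vimentin of non-muscle cells, measured 874 to 1138 CPM in adult recipients and 635 to 827 CPM in adult controls (0.39 ± 0.12, adjusted p = 0.045). Dmd, which encodes dystrophin, measured 39.1 to 53.3 CPM in adult recipients and 58.1 to 70.5 CPM in adult controls (-0.40 ± 0.11, adjusted p = 0.0386). Sgcd, which encodes delta-sarcoglycan, measured 47.8 to 61.4 CPM in adult recipients and 63.5 to 85.8 CPM in adult controls (-0.45 ± 0.11, adjusted p = 0.0258).

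In neonatal hearts none of the 10 genes was called between recipients and controls. Over all genes 0% were called higher and 0% lower by edgeR (513 had an unadjusted p under 0.05), and DESeq2 called 0 as well. Among the 10, 0 had an unadjusted p under 0.05 by either tool. The median log2 fold change of the 10 was -0.03. Tcap measured 111, 118, 125 and 122 CPM in neonatal recipients 1, 2, 4 and 5, and 128, 129, 150.4 and 113 CPM in neonatal controls 6 to 9. Control 8 was the highest and the rest overlapped (log2 fold change -0.13, 95% interval -0.29 to 0.04). Actn2 measured 1568, 1701, 1939 and 1993 CPM in neonatal recipients and 1900, 1970, 1800 and 1710 CPM in neonatal controls, with an interval of -0.24 to 0.16.

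Actc1 measured 12042, 10712, 12857 and 13409 CPM in neonatal recipients and 12076, 11654, 11000 and 10629 CPM in neonatal controls. The groups overlapped over most of their range, and the log2 fold change was 0.11 (-0.07 to 0.29). Ttn measured 1075, 1799, 1701 and 1481 CPM in neonatal recipients and 1311, 1846, 1554 and 2202 CPM in neonatal controls. Recipient 1 was the lowest and control 9 the highest of all neonatal libraries, and both groups were spread widely (-0.19, interval -0.51 to 0.12). Nebl measured 238, 301, 248 and 229 CPM in neonatal recipients and 234, 243, 275 and 292 CPM in neonatal controls, with an interval of -0.25 to 0.16. The intervals of Ldb3, Myoz2, Nexn, Tpm1 and Des lay within -0.24 and 0.32. Adjusted p was 0.999 for each of the 10. Ventricular cardiomyocyte markers summed to 31188 to 39864 CPM in neonatal recipients and 36054 to 42478 CPM in neonatal controls, and T cell markers to 1.122 to 1.999 CPM in neonatal recipients and 1.004 to 2.093 CPM in neonatal controls, so both overlapped. Macrophage markers summed to 215 to 308 CPM in neonatal recipients and 86.3 to 272 CPM in neonatal controls. A p that misses the threshold does not show that the groups are alike.

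The difference between the adult and the neonatal T cell effect was tested as an interaction, in which edgeR called 0% of genes higher and 0% lower (2511 had an unadjusted p under 0.05) and 0 of the 10. Of these, 3 had an unadjusted p under 0.05: Tcap, Actn2 and Nebl. The difference of the log2 fold changes was 0.49 ± 0.11 for Tcap (0.25 to 0.73, adjusted p = 0.182), 0.40 ± 0.14 for Actn2 (0.11 to 0.70, adjusted p = 0.209) and -0.32 ± 0.14 for Nebl (-0.62 to -0.01, adjusted p = 0.307). DESeq2 called 99 genes higher and 79 lower of 8331 with an adjusted p, among them 1 of the 10, Tcap (adjusted p = 0.0236). Neither tool called a difference for the other genes of the 10. In 15 fits that each left out 1 library, the difference for Tcap by edgeR ranged from 0.43 to 0.55, with adjusted p from 0.0852 to 0.369.

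**Figure D3:**
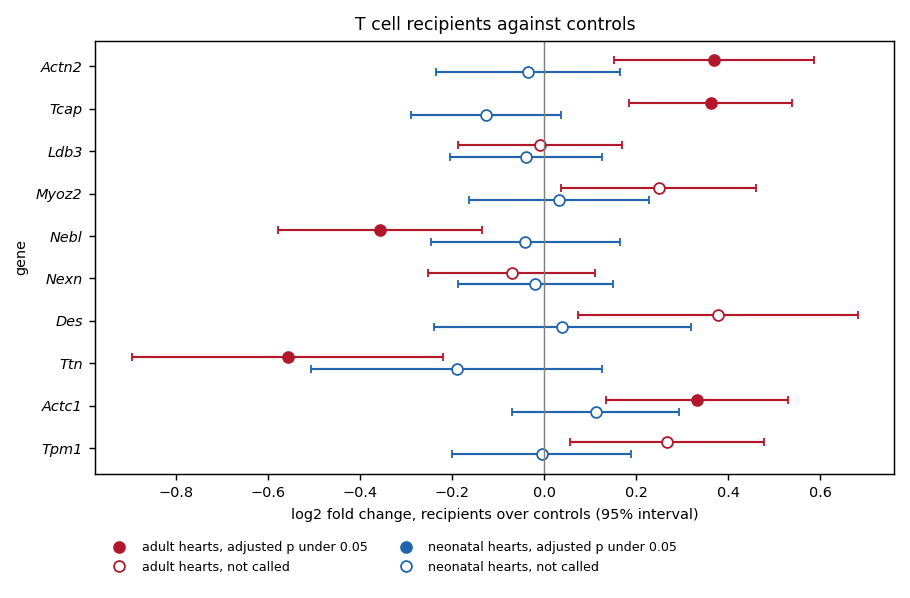
Log2 fold change of T cell recipients over controls (horizontal axis) with 95% intervals for the 10 genes, adult hearts in red above neonatal hearts in blue, and filled points where the adjusted p was under 0.05. In adult hearts the intervals of Tcap, Actn2, Actc1, Nebl and Ttn are filled, and all 10 neonatal intervals include 0.

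The largest differences among the 10 genes lay between the ages. The adult and neonatal recipients, and the adult and neonatal controls, form comparisons that share libraries with the T cell comparisons, so their values are given side by side. In recipients 6 of the 10 were called higher and 2 lower in adult hearts, against 23.8% and 26.9% of all genes. In controls 3 were called higher and 1 lower, against 15.6% and 15.4% of all genes. Tcap, Myoz2 and Ldb3 were higher in adult hearts in both comparisons. The median log2 fold change of the 10 was 0.27 in recipients and 0.02 in controls, against -0.03 and -0.02 over all genes. Without scaling for composition the medians over all genes moved to -0.23 and -0.18, so changes of small size depend on the scaling. With library totals unscaled, the calls over all genes were 2279 higher and 6853 lower in recipients, against 3919 and 4420 as fitted, and 1413 higher and 5152 lower in controls, against 2559 and 2526 as fitted.

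Tcap had the largest age difference of the 10. All 7 adult libraries, at 255 to 347 CPM, lay above all 8 neonatal libraries, at 111 to 150.4 CPM. The log2 fold change, adult over neonatal, was 1.48 ± 0.08 in recipients (2.78 times, adjusted p = 9.08e-10) and 0.99 ± 0.08 in controls (1.98 times, adjusted p = 3.37e-07). Its levels ran from adult recipients (331 ± 17.8 CPM, SD, n = 4) through adult controls (258 ± 2.98, n = 3) to neonatal recipients (119 ± 5.76, n = 4) and neonatal controls (129.9 ± 15.5, n = 4), and the 2 neonatal groups did not differ beyond their spread.

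Myoz2 measured 410.1, 342, 383 and 469 CPM in neonatal recipients and 391, 418, 404 and 355 CPM in neonatal controls. With adult levels of 662 to 805 CPM in recipients and 571 to 663 CPM in controls, the ages did not overlap in either comparison. The log2 fold change was 0.88 ± 0.09 in recipients (adjusted p = 1.02e-06) and 0.66 ± 0.10 in controls (adjusted p = 0.000111). Ldb3 measured 603, 753, 716 and 682 CPM in neonatal recipients and 649, 715, 744 and 725 CPM in neonatal controls. All of these lay below all adult libraries. The fitted log2 change was 0.32 ± 0.08 in recipients (adjusted p = 0.00236) and 0.29 ± 0.08 in controls (adjusted p = 0.0146), and with unscaled totals it was 0.12 in both (adjusted p = 0.193 and 0.258). Tcap and Myoz2 were also called with unscaled totals and in every fit that left out 1 library, in both comparisons.

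Tpm1 measured 6234, 5192, 5723 and 6666 CPM in neonatal recipients and 6267, 6409, 5717 and 5525 CPM in neonatal controls. The ages did not overlap in either comparison, though the gap was narrow in controls. edgeR gave a log2 fold change of 0.45 ± 0.09 in recipients (adjusted p = 0.000537) and 0.18 ± 0.10 in controls (adjusted p = 0.181). Actc1 was higher in adult recipients than in neonatal recipients by 0.26 ± 0.09 (adjusted p = 0.0179), with no overlap, and differed by 0.04 ± 0.09 between controls (adjusted p = 0.779). Actn2 was higher in adult recipients by 0.27 ± 0.10 (adjusted p = 0.0232), with neonatal recipient 5 inside the adult range, and its value in controls was -0.13 ± 0.10 (adjusted p = 0.358). With unscaled totals neither Actc1 nor Actn2 was called in recipients by edgeR (0.06 and 0.08, adjusted p = 0.494 and 0.521). Actn2 was then called lower in adult than in neonatal controls (-0.30, adjusted p = 0.0343).

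Nebl and Ttn were lower in adult than in neonatal recipients. For Nebl the groups did not overlap (-0.33 ± 0.10, adjusted p = 0.0101). For Ttn neonatal recipient 1, at 1075 CPM, lay inside the adult range (-0.44 ± 0.15, adjusted p = 0.0211). In controls the values were -0.01 ± 0.11 for Nebl (adjusted p = 0.956) and -0.07 ± 0.16 for Ttn (adjusted p = 0.768). With the length trend removed, neither was called in recipients (-0.03 and -0.01, adjusted p = 0.798 and 0.921), and in controls Ttn was called higher in adult hearts (0.35, adjusted p = 0.0195). Without neonatal recipient 2, the calls in recipients fell to 5 of 10, and Actn2, Actc1 and Ttn were the genes lost. Over all genes, that fit called 3533 higher and 4092 lower. Actn2 was also not called without adult recipient 3, adult recipient 4 or neonatal recipient 1 (0.21 to 0.32 over the 8 fits, adjusted p 0.0136 to 0.0869). Actc1 was not called without adult recipient 2, and Ttn without adult recipient 4 or neonatal recipient 4 (-0.575 to -0.348, adjusted p 0.00171 to 0.0774).

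Des was the gene called lower in adult controls. It measured 1530, 1361, 1494 and 1883 CPM in neonatal recipients and 1714, 1807, 1166 and 1416 CPM in neonatal controls. Neonatal control 8 lay inside the range of adult controls, and the other 3 neonatal controls lay above it. The log2 fold change, adult over neonatal, was -0.50 ± 0.15 in controls (adjusted p = 0.0147) and -0.16 ± 0.13 in recipients (adjusted p = 0.339). With unscaled totals edgeR called Des lower in adult hearts in both comparisons (-0.66 in controls and -0.35 in recipients, adjusted p = 0.00303 and 0.0433). Over the fits that each left out 1 library the value in controls ran from -0.61 to -0.41, and the call was lost without adult control 6 and without neonatal control 7 (highest adjusted p 0.0737). Nexn ranged over 314 to 343 CPM in neonatal recipients and 318 to 339 CPM in neonatal controls, and was not called in any comparison as fitted. With unscaled totals it was called lower in adult hearts in both age comparisons (-0.31 in recipients and -0.22 in controls, adjusted p = 0.00141 and 0.0286).

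**Figure D4:**
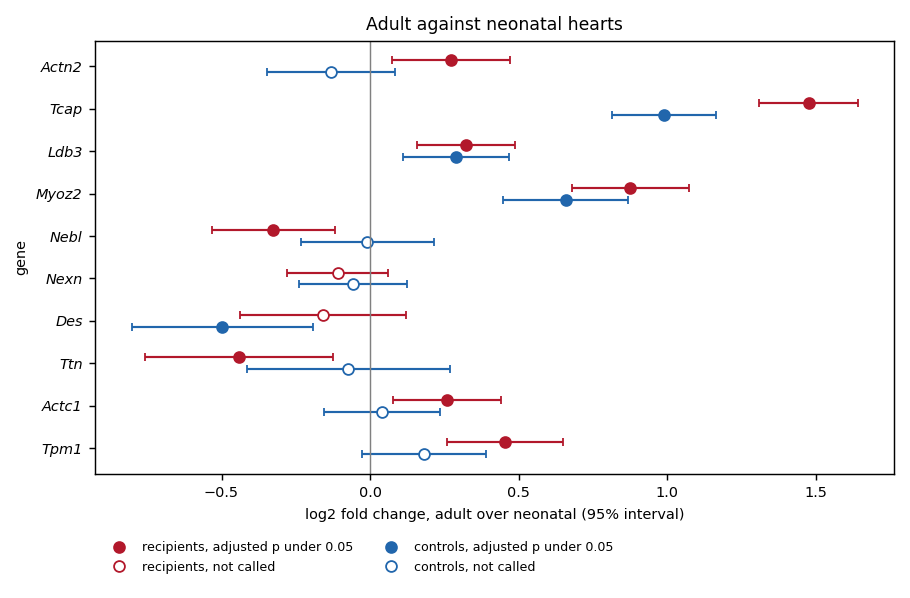
Log2 fold change of adult over neonatal hearts (horizontal axis) with 95% intervals for the 10 genes, T cell recipients in red above controls in blue, and filled points where the adjusted p was under 0.05. Tcap and Myoz2 lie furthest to the right in both comparisons, Ldb3 is filled in both, and Des is filled in controls only, on the left.

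Other genes of the sarcomere were called in both directions between the ages. In adult recipients against neonatal recipients, where 23.8% of all genes were called higher and 26.9% lower, 11 of 27 other Z-disc genes were called higher and 7 lower, and 6 of 12 thin filament genes higher and 3 lower. Of the M-band and thick filament genes 8 of 11 were called higher and 1 lower, and of the intermediate filament and costamere genes 3 of 14 higher and 6 lower. In adult controls against neonatal controls, 6 of 27 other Z-disc genes were called higher and 5 lower, 3 of 12 thin filament genes higher and 4 lower, 4 of 11 M-band and thick filament genes higher and 2 lower, and 3 of 14 intermediate filament and costamere genes higher and 4 lower, against 15.6% higher and 15.4% lower over all genes. In controls the thin filament pair of troponin I genes ran in opposite directions. Tnni3, the cardiac form, was at 0.68 ± 0.12 (adjusted p = 0.000411) and Tnni1, the slow skeletal form of immature hearts, at -0.56 ± 0.09 (adjusted p = 0.00027). In recipients Tnni3 was called as well, but Tnni1 was not, at 1175 to 1351 CPM in adult and 1347 to 1593 CPM in neonatal recipients. The leiomodins Lmod2 and Lmod3, which elongate thin filaments, were higher in adult controls, at 0.65 ± 0.11 (adjusted p = 0.000182) and 0.67 ± 0.10 (adjusted p = 0.000117). Of the Z-disc genes, Sorbs2 measured 405 to 426 CPM in adult controls and 565 to 684 CPM in neonatal controls (-0.59 ± 0.10, adjusted p = 0.000379). Of the intermediate filament genes, Synm, which encodes the desmin partner synemin, measured 3.12 to 4.42 CPM in adult controls and 5.26 to 16.2 CPM in neonatal controls (-1.57 ± 0.31, adjusted p = 0.00148).

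Ventricular cardiomyocyte markers summed to 57887 to 65177 CPM in adult recipients and 31188 to 39864 CPM in neonatal recipients, and to 49131 to 50542 CPM in adult controls and 36054 to 42478 CPM in neonatal controls. Skeletal muscle markers summed to 5.04 to 6.97 CPM in adult recipients and 12.9 to 23.1 CPM in neonatal recipients, and to 4.30 to 6.32 CPM in adult controls and 11.2 to 19.9 CPM in neonatal controls. Atrial markers summed to 253 to 3424 CPM in adult recipients and 3173 to 7119 CPM in neonatal recipients. In controls they summed to 192 to 1052 CPM in adult and 1537 to 5700 CPM in neonatal hearts. Most of each sum was Nppa, at 215 to 3414 CPM in adult and 3167 to 7110 CPM in neonatal recipients. In controls Nppa measured 188 to 1051 CPM in adult and 1533 to 5691 CPM in neonatal hearts. Myl7 overlapped between the ages, at 2.15 to 35.5 CPM in adult and 4.79 to 8.20 CPM in neonatal recipients. Its ranges also overlapped between adult and neonatal controls. Endothelial markers summed to 1023 to 1187 CPM in adult recipients and 698 to 820.5 CPM in neonatal recipients, and to 1044 to 1051 CPM in adult controls and 733 to 798 CPM in neonatal controls, and 4 of 4 were called higher in both comparisons. Smooth muscle and pericyte markers summed to 1092 to 1210 CPM in adult recipients and 688 to 805 CPM in neonatal recipients, and to 1206 to 1231 CPM in adult controls and 686 to 797 CPM in neonatal controls, with 4 of 6 called higher and 2 lower in both. Macrophage markers summed to 69.8 to 96.8 CPM in adult recipients and 215 to 308 CPM in neonatal recipients (4 of 4 called lower), and to 74.5 to 94.96 CPM in adult controls and 86.3 to 272 CPM in neonatal controls (2 of 4 called lower). Fibroblast sums overlapped between the ages in both comparisons. T cell markers summed to 2.26 to 4.19 CPM in adult recipients and 1.122 to 1.999 CPM in neonatal recipients, and overlapped between the controls. The part of these markers in the age differences of the 10 genes was not tested.

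Shares within a gene family do not depend on library scaling, but they can depend on cell makeup. The marker sums above differed between the ages, and their part in these shares was not tested. Tpm1 made up 94.1, 94.5, 93.7 and 92.6% of the counts of Tpm1, Tpm2, Tpm3 and Tpm4 in adult recipients and 93.7, 93.7 and 92.7% in adult controls. In neonatal hearts it made up 87.6, 88.4, 89.0 and 89.7% in recipients and 89.0, 89.5, 90.5 and 89.6% in controls. All adult libraries lay above all neonatal ones. The mean difference, adult minus neonatal, was 5.06 percentage points in recipients (exact two-sided permutation test, p = 0.0286, the smallest that 4 against 4 allows, adjusted p = 0.229 over 8 comparisons). It was 3.72 points in controls (exact p = 0.0571, the smallest that 3 against 4 allows, adjusted p = 0.229). The T cell differences were 0.37 points in adult and -0.97 points in neonatal hearts (exact p = 0.514 and 0.2, adjusted p = 0.588 and 0.533).

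Skeletal actin, Acta1, made up 1.45, 0.905, 2.05 and 3.75% of the counts of Acta1 and Actc1 in adult recipients and 1.55, 0.785 and 1.67% in adult controls. It made up 1.97, 1.39, 1.87 and 2.05% in neonatal recipients and 1.98, 1.84, 1.15 and 1.65% in neonatal controls. Adult recipient 4 stood above every other library, and the groups otherwise overlapped. Means were 2.04 ± 1.23% in adult recipients, 1.34 ± 0.48% in adult controls, 1.82 ± 0.30% in neonatal recipients and 1.65 ± 0.36% in neonatal controls (SD). The 4 differences had exact permutation p from 0.4 to 0.8. Without adult recipient 4 the difference between adult and neonatal recipients changed sign, to -0.35 points.

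The ratio of titin to its cap needs no scaling. There were 3.52, 3.28, 3.31 and 3.38 Ttn counts per Tcap count in adult recipients and 6.04, 6.15 and 6.95 in adult controls. Neonatal hearts had 9.66, 15.2, 13.7 and 12.1 in recipients and 10.3, 14.4, 10.3 and 19.5 in controls. The 4 adult recipients lay close together and below all adult controls, every adult library lay below every neonatal one, and the neonatal groups overlapped. The pair was picked after its values were seen and joins the longest and the shortest transcript of the 10, so the ratio is a description with no test.

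**Figure D5:**
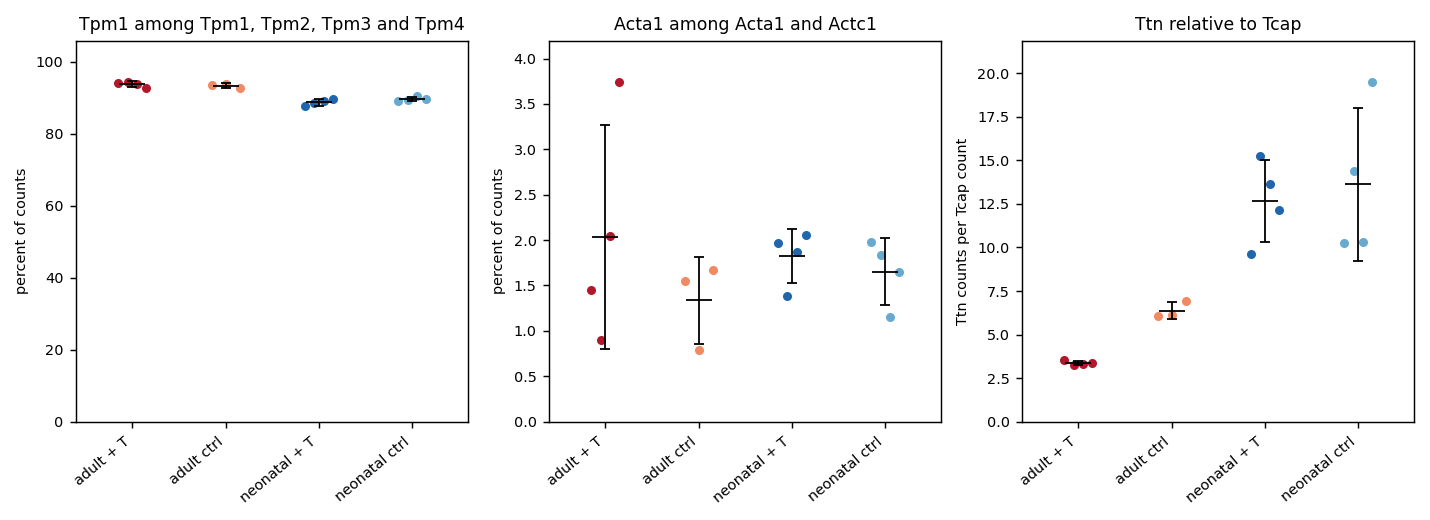
Tpm1 counts as a percent of Tpm1 to Tpm4 counts (left), Acta1 counts as a percent of Acta1 and Actc1 counts (middle) and Ttn counts per Tcap count (right), each from 0, with points for libraries and bars for mean ± SD by group. Adult hearts lie above neonatal hearts in the Tpm1 share and below them in Ttn per Tcap, where adult recipients (3.28 to 3.52) also lie below adult controls (6.04 to 6.95).

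Within an age, the genes varied between libraries in recurring pairs, given as Pearson's r of log2 CPM over 8 neonatal and over 7 adult libraries of both arms, with no p. Actc1 and Tpm1 varied together (r = 0.72 in neonatal and 0.957 in adult libraries), as did Nebl and Ttn (0.643 and 0.821) and Ldb3 and Nexn (0.702 and 0.8). Nebl ran opposite to Actc1 (-0.873 and -0.781) and to Des (-0.76 and -0.964). Tcap and Actc1 were related in adult libraries at 0.939 and in neonatal ones at -0.0458. Each r pools both arms, so all these adult values contain the difference between recipients and controls. These libraries share depth, length trend and cell makeup within each pair of values.

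Among 11138 other genes with a mean of at least 5 CPM, likeness was taken as the smaller of both within-age correlations. The genes named are the highest of that many over few libraries, so high values come with the selection. Their adult correlations also contain the difference between recipients and controls. They are a description with no test. The closest to Nebl were Msi2 and Qser1 (0.975 each), to Ttn Paxbp1 (0.961) and Gse1 (0.951), and to Actc1 G6pc3 (0.957) and Polr2i (0.946). The closest to Tpm1 were Cox19 (0.951) and Rps2 (0.945), to Des Gpc1 (0.942) and Tor2a (0.938), and to Actn2 Asb2 (0.932) and Hip1r (0.913). Smim19 (0.926) was among those closest to Tcap, and Myoz2 was closest to Bex3 (0.922) and Tmem234 (0.904). For Ldb3 they were Tacc2 (0.866) and Adamts15 (0.856), and for Nexn Cubn (0.839) and Ecpas (0.828), the weakest likeness of the 10.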

How the data were processed

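RNA from left ventricles was captured with oligo-dT beads and made into stranded libraries (TruSeq Stranded mRNA), per the labels' protocols. Per the submitters' processing notes, bcl2fastq 2.20.0.422, cutadapt 2.5, STAR 2.7.2b, featureCounts 1.6.4 and DESeq2 1.24.0 were used with GRCm38.p6. The authors deposited 1 table of expected counts, raw and unscaled, for 39331 RefSeq genes, and 61.1% of its non-zero values are whole. The counted feature, strand setting and rule for fractions are not given in the sources used here. The table's length column equals the genomic span in 100% of genes and was not used. Groups come from sample titles and source names.

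Counts were rounded. Genes were kept by filterByExpr (minimum count 10, minimum total 15), which left 16437, with TMM scaling (trimmed mean of M values) of the libraries. All 15 libraries entered 1 robust quasi-likelihood fit (edgeR 4.0.16, R 4.3.3) with 1 coefficient per group. The 5 contrasts were two-sided, with Benjamini-Hochberg adjustment over all genes tested. Standard errors were derived from each fold change and its F statistic, and intervals use the t quantile. DESeq2 1.42.0, other scalings, no filter, only the compared groups, each library left out, a replicate block and removal of a transcript length trend (natural spline, 5 degrees of freedom) were alternatives. Transcript lengths are of the longest GENCODE M21 transcript per symbol, found for 15333 genes. Log2 CPM used a prior count of 1. Libraries of a group differed beyond sampling noise (lowest chi-square per degree of freedom 11.1). The floor of 3 counts covers counting error only. The fit was tested on simulated data.

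The 10 genes, the companion and marker lists and the tests were chosen with earlier results of these data known. All 10 are named. Of the companion lists, genes past the threshold in a T cell contrast and up to 4 per list with the smallest p in an age contrast could be named. Genes of like pattern were the 2 highest in likeness per gene, leaving out predicted genes. Of these, 1 is not reported here. The Ttn to Tcap ratio was added after seeing the data.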

Additional observations from a re-analysis of the deposited data

Results flagged for a closer look

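In 36 sets of 4 libraries (10 genes and 2 shares in 3 groups), the distance of the highest or lowest library from its neighbour was set against Dixon's 95% critical value for 4 values, which chance passes in about 1 set in 20. Adult recipient 2 passed it for both thin filament genes. Actc1 measured 15906 CPM there and 14134 to 14426 CPM in the other adult recipients, a gap of 0.835 of the range. Tpm1 measured 9189 CPM there and 7696 to 7865 CPM in the other adult recipients, a gap of 0.887. Without this library the log2 fold changes of adult recipients over adult controls were 0.29 for Actc1 and 0.20 for Tpm1.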

How the results depend on the processing

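In adult hearts, 5 of the 10 genes were called between recipients and controls as fitted, and 0 to 3 when each library was left out in turn. The count was 0 with the length trend removed, and 2 (Tcap and Actc1) without adult recipient 4 and neonatal control 8, which were dropped after seeing the data. Over all genes, the fit without both libraries called 257 higher and 147 lower of 16348. For the difference of the T cell effects DESeq2 called 1 of the 10, against 0 by edgeR, and 99 higher and 79 lower of 8331 genes. Between adult and neonatal recipients 8 were called, with 5 to 8 over the fits that each left out 1 library, and between controls 4, with 3 to 4. Over all genes, those fits called 3474 to 3811 higher and 3955 to 4267 lower in recipients. In controls they called 1893 to 2709 higher and 1695 to 2814 lower. Over the 12572 genes with an adjusted p, DESeq2 called 1239 higher and 1081 lower in adult hearts. By edgeR it was 580 and 826 of 16437. With adult recipient 4, adult control 5 or adult control 6 left out, or the length trend removed, edgeR called 0 genes in each case.

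Values that changed sign were small and not called, with 1 exception. In adult recipients over controls, Ldb3 was 0.0019 with RLE factors, 0.0031 with DESeq2, 0.11 with the length trend removed and 0.0486 without both dropped libraries, and Nexn was 0.0300 there. Leaving out single libraries gave -0.0492 to 0.0332 for Ldb3 and -0.11 to 0.0145 for Nexn, and for the difference of effects -0.0270 to 0.0776 and -0.0939 to 0.0340. For that difference Nexn was 0.0457 without both libraries. In neonatal hearts the single-library ranges were -0.0880 to 0.0255 (Actn2), -0.0867 to 0.0179 (Ldb3), -0.0650 to 0.0541 (Tpm1), -0.0520 to 0.10 (Myoz2), -0.13 to 0.0162 (Nebl) and -0.0788 to 0.13 (Des). There Des was -0.0787 without both libraries, and with the trend removed Myoz2 was -0.0082 and Ttn 0.0521. Between adult and neonatal controls, Actc1 was -0.13 with unscaled totals, and with the trend removed Nebl was 0.0693 and Ttn 0.35, the exception (adjusted p = 0.0195). Nebl was 0.0142 without both libraries, and the single-library ranges were -0.10 to 0.0560 (Nebl) and -0.19 to 0.0644 (Ttn). The cause was not tested.

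Skeletal actin differences over fits without 1 library ran from 0.13 to 1.08 points (T cells, adult), -0.0011 to 0.31 (T cells, neonatal), -0.49 to -0.04 (age, controls) and -0.35 to 0.59 (age, recipients), and Tpm1 share differences from 0.03 to 0.73, -1.30 to -0.61, 3.50 to 4.06 and 4.69 to 5.42 points.

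Whether equal replicate numbers pair libraries of both ages is not settled here. Correlations of deviations between libraries of the same number were 0.07, 0.11 and -0.07 in recipients and -0.06 and 0.31 in controls. The library of the same number was the best match for adult recipients 1 and 2 and adult control 7. Adult recipient 4 correlated best with neonatal recipient 1 (0.13), and adult control 6 with neonatal control 8 (0.23). With the replicate block, 4 genes were called between adult and neonatal recipients (8 in the same libraries without the block) and 4 between controls (4 without). Under the block Actc1, Nebl and Ttn in controls were -0.0495, 0.15 and 0.13, and without it in the same libraries -0.0494, 0.15 and 0.11.

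All values of the 10 genes lay far above the floor of 3 counts. The 3 or 4 libraries per group limit the T cell comparison in adults, where leaving out any of 4 single libraries left none of the 10 called.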
